A study of Mus musculus with 27 samples.

Results

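The genes described here are 10 genes of the epithelial to mesenchymal transition (EMT) in mouse pluripotent cells: the cadherins Cdh1, Cdh2 and Cdh11, the transcription factors Snai1, Snai2, Twist1, Zeb1 and Zeb2, the intermediate filament Vim and the matrix protein Fn1. They were taken by symbol from a table of 23604 genes, and all 10 were found. Their levels were read in 19 bulk RNA-seq libraries as FPKM (mapped fragments scaled to transcript length and library size), a unit that allows levels of different genes to be compared. The fold changes below are on the scale of log2(FPKM + 1), so changes of weakly expressed genes come out too small.

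All cells were labelled WT. Mouse embryonic stem cells (mESCs, 2 libraries) stand for naive pluripotency and were kept without feeders in N2B27 medium with 1 µM MEK inhibitor, 3 µM Chir99021 and 1000 units/ml LIF. EpiLCs (2 libraries), a transient epiblast-like state, were made in N2B27 with 1% KSR, bFGF2 at 12 ng/ml and Activin A at 20 ng/ml. EpiSCs (2 libraries) stand for primed pluripotency and grew in 15% KSR, the same 2 growth factors and 5 µM XAV939, a tankyrase inhibitor that lowers Wnt signalling, on inactivated mouse embryonic fibroblasts. Epiblastoids, which are epiblast-like bodies of mESCs in Matrigel, were sampled in EpiLC medium on days 2, 3 and 4 with 1 library each. Formative pluripotent stem cells (fPSCs), derived from Epiblastoids, grew in N2B27 with Activin A, bFGF2 and XAV939 (5 µM per the labels of the earlier deposit). They gave 1 library at passage 1 and 7 long-term libraries: CMT cells at P10, P20 and P30 from the earlier deposit, and 46C P24, CMT P11, ROSAmTmG P12 and BVSC P14 from a later one. Each line other than CMT gave 1 library, and CMT P11 came from cryopreserved cells. Per the study, 46C carries a Sox1-GFP reporter, BVSC carries Blimp1 and Stella reporters, and ROSAmTmG cells are marked by tdTomato. A further 2 libraries came from fPSCs derived from E5.5 and E6.5 epiblasts, at P10. Labels do not say whether replicates came from separate cultures, and the long-term CMT libraries are passages of 1 line. The p-values therefore measure only the spread between these samples. This spread was pooled over all groups of a fit, so a p-value between 2 groups also rests on the spread among fPSC lines and passages.

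In EMT an epithelial sheet loosens, and cells leave it singly. E-cadherin, made from Cdh1, joins epithelial cells at adherens junctions, and N-cadherin, made from Cdh2, replaces it in many mesenchymal cells, an exchange called the cadherin switch. The zinc finger proteins Snail and Slug (Snai1, Snai2), Zeb1 and Zeb2, and the bHLH protein Twist1, repress epithelial genes, Cdh1 among them, while vimentin and fibronectin are common marks of mesenchymal cells. In the mouse embryo the epiblast is an epithelium, and EMT takes place as its cells pass through the primitive streak at gastrulation.

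Depth behind the FPKM is not known, since the table holds no read counts. FPKM summed to between 307394 and 414727 per library. As a check of the labels, Pou5f1 (Oct4) was at 226 FPKM or more in every library, Zfp42, a gene of the naive state, was at 347 and 384 FPKM in mESCs and below 12 FPKM elsewhere, and Fgf5, a gene of the formative state, was below 0.1 FPKM in mESCs and between 72.9 and 109 FPKM in the long-term fPSCs. EpiSC libraries, from cultures on feeders, stood apart in fibroblast genes: 22 listed genes summed to 395 and 526 FPKM in EpiSCs, to between 5.88 and 15.7 FPKM in mESCs and EpiLCs, and to between 6.65 and 12.5 FPKM in long-term fPSCs. Of the 8 defining fibroblast markers, 6 reached 1 FPKM in both EpiSC libraries, with Col1a1 at 111 and 153 FPKM, while 1 to 3 of the 8 (Lum, Dcn or Postn) were at 0 in each long-term fPSC library. Among these 6, Thy1 (4.63 and 4.01 FPKM) and Dcn (2.82 and 1.88 FPKM) did not set EpiSCs apart. EpiLCs had 4.14 and 4.38 FPKM of Thy1 and 4.48 and 6.10 FPKM of Dcn. Of the 22 genes, 16 reached 1 FPKM in each EpiSC library, and Pdgfra, Ddr2, Mgp and Fap were among those that did not. The part of feeder RNA in the EpiSC levels given below was not tested. In a bulk library, fewer cells of a type and less RNA per cell cannot be told apart.

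Cdh1, the epithelial cadherin, was high in all libraries but those of EpiSCs. It was at 184 and 133 FPKM in mESCs, 199 and 176 FPKM in EpiLCs, 26.8 and 29.0 FPKM in EpiSCs, and between 141 and 198 FPKM (median 160) in the 7 long-term fPSC libraries. The fPSCs of E5.5 and E6.5 epiblasts had 191 and 221 FPKM, and Epiblastoids fell within 151 to 243 FPKM. The EpiSC libraries therefore lay below every other library, while mESCs, EpiLCs and fPSCs overlapped. EpiSCs were 5.46-fold lower than mESCs (log2 -2.45 ± 0.21 SE, adjusted p = 3.10e-07, limma) and 6.52-fold lower than EpiLCs (log2 -2.71 ± 0.21, adjusted p = 2.06e-07), and fPSCs were 5.79-fold higher than EpiSCs (log2 2.53 ± 0.17, adjusted p = 3.33e-08). Between fPSCs and mESCs the difference was 0.08 ± 0.17 on the log2 scale and did not pass the threshold (adjusted p = 0.720).

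The sequence before the Cdh1 start site is shown because it holds the E-box that Snail, Slug and Zeb proteins are known to read. It lies at chr8:109127001-109127250 of mm9 (NCBIM37), on the plus strand, directly before the first exon, and capitals mark CACCTG and its reverse complement CAGGTG.
Cdh1: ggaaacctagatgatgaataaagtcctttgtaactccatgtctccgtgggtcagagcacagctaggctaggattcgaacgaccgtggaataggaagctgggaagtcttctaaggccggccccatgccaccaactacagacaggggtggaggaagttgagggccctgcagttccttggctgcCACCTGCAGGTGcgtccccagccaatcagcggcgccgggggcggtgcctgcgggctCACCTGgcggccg
The 2 adjoining copies begin 69 and 63 bases before the start and together read the same on both strands, and the copy nearest to the gene begins 13 bases before it. Among 22067 protein-coding genes, 17.0% held at least 1 copy in the 250 bases before the start and 2.1% held 2 or more. Of the 10 genes, Cdh1 held 3 copies, Zeb1 held 2, Snai1 held 1 and the other 7 held none. A match describes letters and not a bound site.

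Cdh2, the neural and mesenchymal cadherin, was lowest in mESCs, higher in long-term fPSCs, and highest in EpiSCs and in Epiblastoids of day 4. Levels were 0.450 and 0.101 FPKM in mESCs, 1.88 and 2.2 FPKM in EpiLCs, and 30.6 and 30 FPKM in EpiSCs. Long-term fPSCs had 6.48, 4.76 and 2.72 FPKM at CMT P10, P20 and P30, 7.19 FPKM in CMT P11, 4.28 FPKM in BVSC P14, 2.36 FPKM in ROSAmTmG P12 and 31.2 FPKM in 46C P24. Every fPSC library was above both mESC and both EpiLC libraries. 46C P24 was above both EpiSC libraries, so that fPSCs and EpiSCs overlapped in this gene, as they did in Cdh11 and Twist1. fPSCs were higher than mESCs (log2 2.45 ± 0.60, adjusted p = 0.00418) and lower than EpiSCs (log2 -2.18 ± 0.60, adjusted p = 0.0121), and did not pass against EpiLCs (log2 1.19 ± 0.60, adjusted p = 0.222). The call against EpiSCs was lost when either EpiSC library was left out (adjusted p = 0.0827 and 0.103), and the call against mESCs when mESC replicate 2 was left out (adjusted p = 0.0591). Without 46C P24 the differences were 2.08 from mESCs and -2.55 from EpiSCs, with adjusted p = 9.76e-05 and 2.64e-05, an alternative chosen after seeing the data.

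Since FPKM is per length, both cadherins can be set side by side. Cdh2 made up 0.0759% and 0.244% of the summed Cdh1 and Cdh2 level in mESCs, 0.938% and 1.24% in EpiLCs, and 53.3% and 50.9% in EpiSCs. In long-term fPSCs it made up 1.45% to 4.55% in 6 libraries and 18.2% in 46C P24, and it reached 28.0% in Epiblastoids of day 4. EpiSCs thus had both cadherins at near equal levels, while day 4 Epiblastoids and 46C P24 had raised Cdh2 beside a Cdh1 level (151 and 141 FPKM) like that of the other fPSCs.

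**Figure D1:**
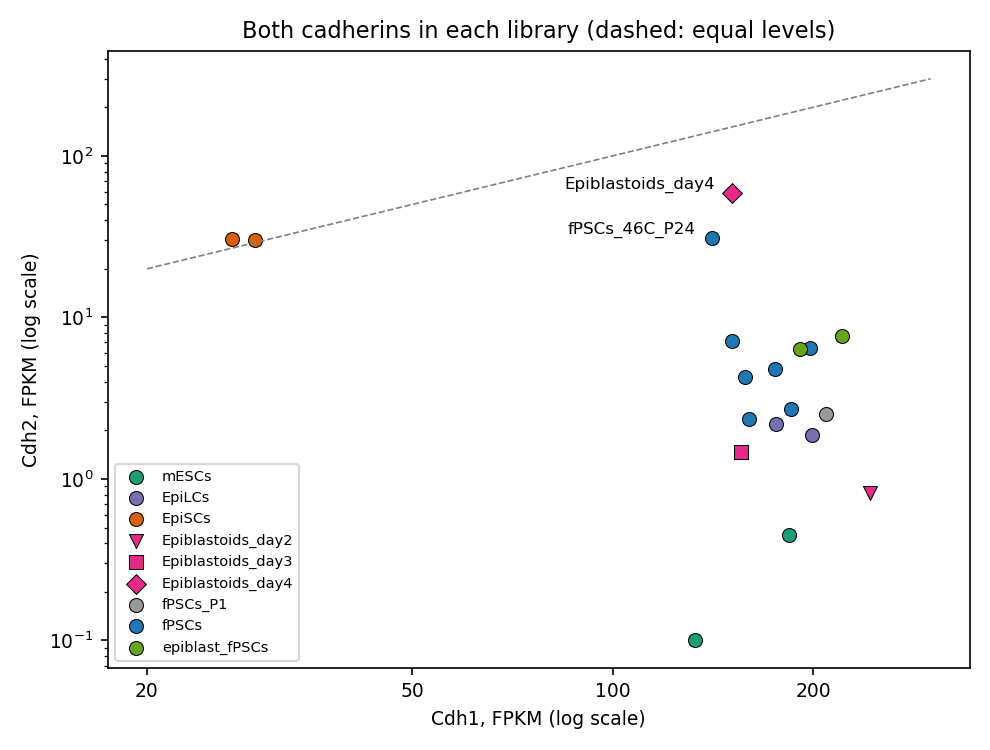
Level of Cdh2 (vertical axis, FPKM, log scale) against that of Cdh1 (horizontal axis, FPKM, log scale), 1 point for each of the 19 bulk libraries, coloured by group. The 2 EpiSC points lie on the dashed line of equal levels near 30 FPKM, and all other libraries lie between 133 and 243 FPKM of Cdh1, with day 4 Epiblastoids (58.8 FPKM of Cdh2) and 46C P24 (31.2 FPKM) above the rest.

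46C P24 also had the highest levels of streak and endoderm genes among the long-term fPSCs. In it 14 genes of the primitive streak and mesoderm summed to 256 FPKM, against 30.6 to 81.5 FPKM in the other 6 libraries, and 11 endoderm genes summed to 451 FPKM, against 13.4 to 111 FPKM. Their part in its Cdh2 level was not tested. 46C P24 had passed more times than all but CMT P30, which had 2.72 FPKM of Cdh2. The 46C line was read in this library alone, so line, passage and deposit cannot be told apart in it. The part of each in its Cdh2 level was not tested.

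Cdh11, a cadherin of mesenchymal and bone-forming cells, stayed low. It was at 0 and 0.00271 FPKM in mESCs, 0.161 and 0.0244 FPKM in EpiLCs, and 1.30 and 1.29 FPKM in EpiSCs. Long-term fPSCs ranged from 0.0826 to 2.12 FPKM (median 0.501), again with 46C P24 at the top, and epiblast-derived fPSCs had 0.873 and 3.59 FPKM. The highest level was 11.3 FPKM in Epiblastoids of day 4. Cdh11 reached 1 FPKM in no mESC or EpiLC library, and entered the test through EpiSCs, 46C P24 and the E6.5 line. It was higher in EpiSCs than in mESCs (log2 1.19 ± 0.43, adjusted p = 0.0330), a call lost without any 1 of the 4 libraries of these groups and with no filter on low values, and it did not pass in the other comparisons.

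**Figure D2:**
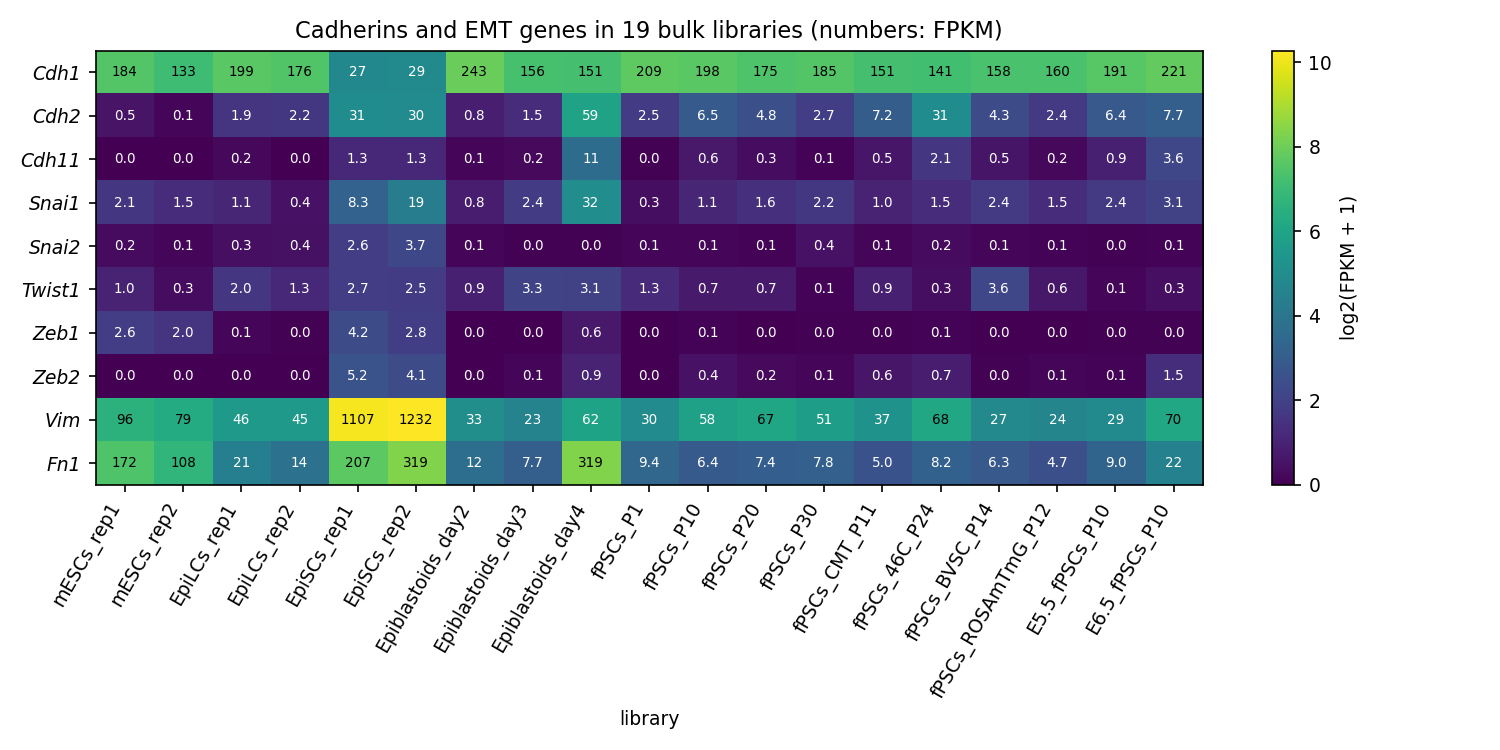
Levels of the 10 genes (rows) in the 19 bulk libraries (columns), coloured by log2(FPKM + 1) with the FPKM printed in each cell. Cdh1 is high in every column except the 2 of EpiSCs. The EpiSC and day 4 Epiblastoid columns hold the highest values of Snai1 and Fn1, and together with 46C P24 those of Cdh2. Vim stands out in the EpiSC columns alone.

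Snai1, which encodes Snail, was highest in Epiblastoids of day 4 and in EpiSCs. It was at 2.12 and 1.5 FPKM in mESCs, 1.12 and 0.425 FPKM in EpiLCs, 8.30 and 18.6 FPKM in EpiSCs, and between 1.02 and 2.39 FPKM (median 1.49) in long-term fPSCs. The libraries of epiblast-derived fPSCs had 2.35 and 3.06 FPKM, and day 4 Epiblastoids had 32.2 FPKM. fPSCs lay wholly below EpiSCs (log2 -2.40 ± 0.27, adjusted p = 1.04e-05) and overlapped mESCs, from which they did not pass (log2 -0.13 ± 0.27, adjusted p = 0.741). EpiSCs rose against mESCs by 2.27 ± 0.34 on the log2 scale (adjusted p = 8.45e-05), although the 2 EpiSC libraries lay far apart.

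Snai2, which encodes Slug, was at 2.62 and 3.68 FPKM in EpiSCs and at 0.430 FPKM or less in all 17 other libraries, day 4 Epiblastoids (0.0410 FPKM) included. fPSCs were lower than EpiSCs by 1.83 ± 0.12 on the log2 scale (adjusted p = 4.59e-08). Snai1 and Snai2 thus parted in Epiblastoids, where only Snai1 was high. Snai2 reached 1 FPKM in EpiSCs alone, so it entered the test through the group in which it was high.

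Zeb1 had a pattern of its own, with levels in mESCs near those in EpiSCs. It was at 2.60 and 1.98 FPKM in mESCs, 4.23 and 2.79 FPKM in EpiSCs, 0.0896 and 0.0439 FPKM in EpiLCs, and between 0.0121 and 0.0727 FPKM in long-term fPSCs. fPSCs and EpiLCs were far below both mESCs and EpiSCs, with no overlap, and overlapped each other. fPSCs fell against mESCs (log2 -1.65 ± 0.11, adjusted p = 2.46e-08) and EpiSCs (log2 -2.1 ± 0.11, adjusted p = 3.55e-09), and EpiLCs fell against mESCs (log2 -1.62 ± 0.14, adjusted p = 7.81e-07). Between EpiSCs and mESCs the adjusted p was 0.0169 but the fold, 1.36, was under the 1.5 that the threshold asks.

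Zeb2, the relative of Zeb1 that is known to act in gastrulation, was at 5.19 and 4.07 FPKM in EpiSCs and below 0.02 FPKM in mESCs and EpiLCs. Long-term fPSCs had 0.0484 to 0.719 FPKM (median 0.208), above every mESC and EpiLC library and below both EpiSC libraries, and the E6.5 line had 1.52 FPKM. fPSCs were lower than EpiSCs by 2.12 ± 0.25 on the log2 scale (adjusted p = 1.83e-05) and did not pass against mESCs (0.37 ± 0.25, adjusted p = 0.262). Zeb1 entered the test through mESCs and EpiSCs, and Zeb2 through EpiSCs and the E6.5 line, which bears on their calls as for Snai2.

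Twist1, a bHLH factor of mesoderm and neural crest, passed the threshold in no comparison. It was at 1.03 and 0.265 FPKM in mESCs, 2.05 and 1.29 FPKM in EpiLCs and 2.68 and 2.49 FPKM in EpiSCs. Long-term fPSCs ran from 0.0822 FPKM in CMT P30 to 3.58 FPKM in BVSC P14, above both EpiSC libraries, with a median of 0.663 FPKM. The difference of fPSCs from EpiSCs was -1.02 ± 0.39 (adjusted p = 0.0531) with all 7 libraries and -1.24 without BVSC P14 (adjusted p = 9.61e-04).

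Vim, the filament protein of mesenchymal cells, was among the largest differences. It was at 95.5 and 79.0 FPKM in mESCs, 46 and 44.9 FPKM in EpiLCs, 1107 and 1232 FPKM in EpiSCs, and between 24.3 and 68.5 FPKM (median 51.3) in long-term fPSCs. Day 4 Epiblastoids had 61.9 FPKM, within the range of fPSCs. EpiSCs were 13.3-fold higher than mESCs (log2 3.73 ± 0.48, adjusted p = 2.20e-05), and fPSCs were 25.8-fold lower than EpiSCs (log2 -4.69 ± 0.39, adjusted p = 4.15e-07). Every fPSC library was below both mESC libraries, a difference that did not pass (log2 -0.95 ± 0.39, adjusted p = 0.0602). Vimentin is also abundant in fibroblasts, and the EpiSC values stand beside the fibroblast genes given above.

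Fn1, the matrix protein fibronectin, was high in naive and primed cells and low between them. It was at 172 and 108 FPKM in mESCs, 20.7 and 13.7 FPKM in EpiLCs, 207 and 319 FPKM in EpiSCs, and between 4.73 and 8.15 FPKM (median 6.44) in long-term fPSCs, which lay below every library of those groups. fPSCs fell against mESCs by 18.4-fold (log2 -4.21 ± 0.30, adjusted p = 5.11e-08), against EpiSCs by 34.7-fold (log2 -5.12 ± 0.30, adjusted p = 1.17e-08) and against EpiLCs by 2.41-fold (log2 -1.27 ± 0.30, adjusted p = 0.0107). The last call was lost without EpiLC replicate 1 (adjusted p = 0.188). Fn1 was the only gene of the 10 that passed between fPSCs and EpiLCs, and mESCs and EpiSCs did not differ past the threshold (log2 0.91 ± 0.38, adjusted p = 0.0598).

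**Figure D3:**
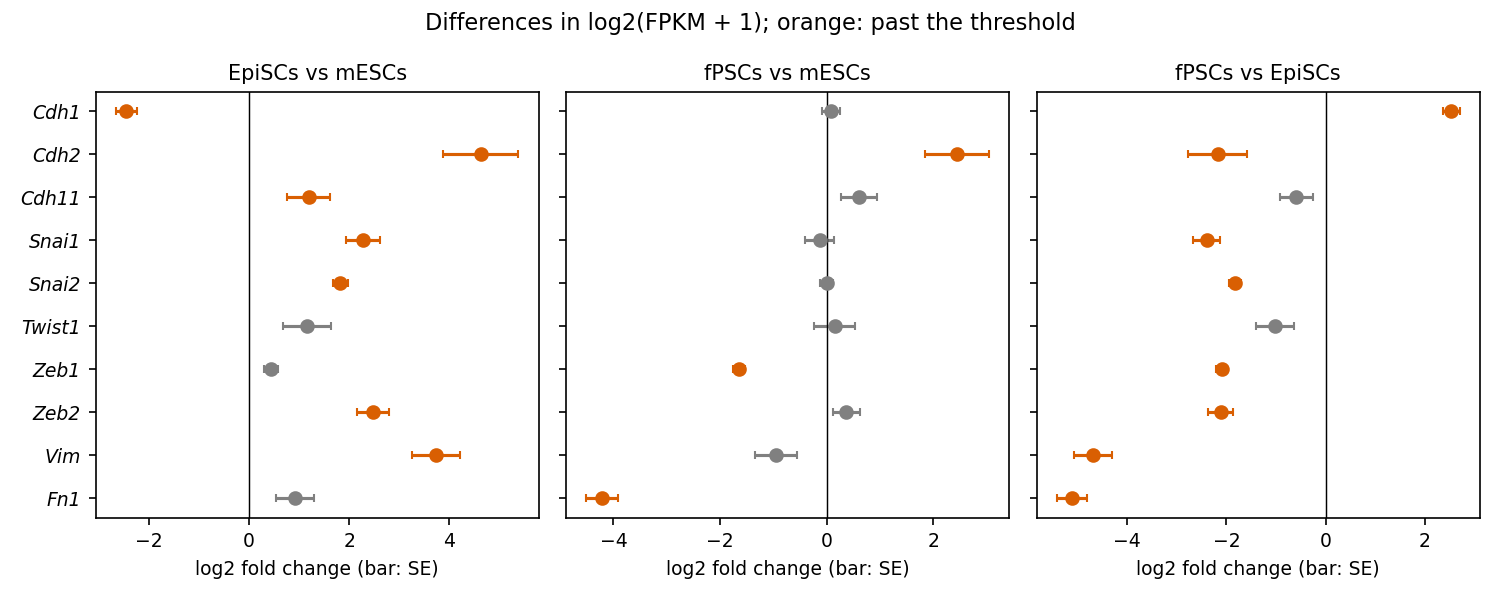
Difference of the 10 genes (vertical axis) in 3 comparisons (panels), as log2 fold change of FPKM + 1 with its SE on the horizontal axis. Orange points passed the threshold of an adjusted p under 0.05 and a fold of at least 1.5, and the grey points did not. Against mESCs, fPSCs are past it for Cdh2, Zeb1 and Fn1, and against EpiSCs for all but Cdh11 and Twist1.

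Over the 10 genes, EpiSCs against mESCs gave 6 higher and 1 lower, where 23.2% and 24.8% of the 12562 genes tested were higher and lower. EpiSCs against EpiLCs gave 7 higher and 1 lower (all genes 20.5% and 15.6%). EpiLCs against mESCs gave 2 lower, Zeb1 and Fn1, and none higher (17.6% and 12.2%), and with only these groups in the fit Cdh2 also passed as higher (log2 1.27, adjusted p = 0.00630) and Vim as lower (log2 -0.92, adjusted p = 0.0222). fPSCs against EpiSCs gave 1 higher, Cdh1, and 7 lower (13.7% and 19.1%). fPSCs against mESCs gave 1 higher, Cdh2, and 2 lower (17.4% and 23.1%), and fPSCs against EpiLCs gave 1 lower (8.29%) and none higher (5.72%). All 10 genes passed the filter on low values, but Cdh11, Snai2, Zeb1 and Zeb2 passed it only through libraries in which they were high. Their calls are part of the counts above, although the filter itself favoured a difference in these genes. These comparisons share groups, so their counts are not independent of each other.

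Epiblast-derived fPSCs were compared with the 7 fPSC libraries made from mESCs, to ask whether the source of the cells bears on these genes. None of the 10 passed the threshold by limma, where 0.446% of all genes were higher and 0.470% lower, and 2 were under 0.05 without adjustment. These were Fn1, at 9.03 and 21.8 FPKM (log2 1.02 ± 0.30, adjusted p = 0.139, limma), and Cdh11 (log2 0.94 ± 0.34, adjusted p = 0.210). In both, the E6.5 line was above all 7 fPSC libraries, and in Fn1 the E5.5 line was above them too. The fPSCs at P1 had 209 FPKM of Cdh1, 2.51 FPKM of Cdh2, 0.292 FPKM of Snai1, 30 FPKM of Vim and 9.45 FPKM of Fn1, with Cdh1 and Fn1 above and Snai1 below all 7 long-term libraries.

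Between the 4 fPSC libraries of the later deposit and the 3 of the earlier one, 5 of the 10 genes could be tested (Cdh1, Cdh2, Snai1, Vim and Fn1) and none passed by limma, although 20.8% of all genes were higher and 8.93% lower in the later deposit. Without adjustment 1 was under 0.05, Cdh1, with 151, 141, 158 and 160 FPKM in the later and 198, 175 and 185 FPKM in the earlier libraries (log2 -0.29 ± 0.09, adjusted p = 0.0310, limma), a fold of 1.22 that is under 1.5. Deposit and cell line cannot be told apart here, except that CMT was used in both. With the fPSCs of the earlier deposit alone, Cdh2 (log2 0.84, adjusted p = 0.0401) and Twist1 (log2 -0.87, adjusted p = 0.0260) also passed against EpiLCs. Of the later deposit alone, Vim passed against mESCs (log2 -1.24, adjusted p = 0.0222).

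In Epiblastoids 5 of the 7 genes that could be compared were past 2-fold higher on day 4 than on day 3, and 1 of 6 on day 3 against day 2. From day 3 to day 4, Cdh2 went from 1.46 to 58.8 FPKM, Snai1 from 2.41 to 32.2 FPKM, Cdh11 from 0.194 to 11.3 FPKM, Vim from 22.9 to 61.9 FPKM and Fn1 from 7.71 to 319 FPKM. Cdh1 was at 156 FPKM on day 3 and 151 FPKM on day 4, a log2 ratio of -0.05, so that the N-cadherin gene was high without a lower level of the E-cadherin gene. On the log2 scale of FPKM + 1 the 5 ratios were 4.60, 3.28, 3.36, 1.39 and 5.20, all past 2-fold. Among the 11357 genes compared, 7.85% were past 2-fold higher and 8.22% lower, and the median of all was -0.14. Twist1 was at 3.31 and 3.08 FPKM, and Zeb1 (0.00680 and 0.620 FPKM), Zeb2 (0.126 and 0.949 FPKM) and Snai2 (0.0381 and 0.0410 FPKM) were below 1 FPKM on both days and were not compared. From day 2 to day 3, Twist1 alone passed 2-fold, from 0.877 to 3.31 FPKM (log2 ratio 1.20, against 3.11% of genes higher and 2.47% lower), while Snai1 went from 0.75 to 2.41 FPKM (log2 ratio 0.96, just under 2-fold) and Cdh1 from 243 to 156 FPKM (log2 ratio -0.64). Each day had 1 library, so these ratios have no replicate check and no test. Genes at 1 FPKM or more on either day were compared. Cdh11 therefore entered through day 4 alone, and Twist1, Snai1 and Cdh2 entered the earlier comparison through day 3 alone. The direction of change of these genes there was fixed by the filter, although Cdh11 and Twist1 are part of the counts above.

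**Figure D4:**
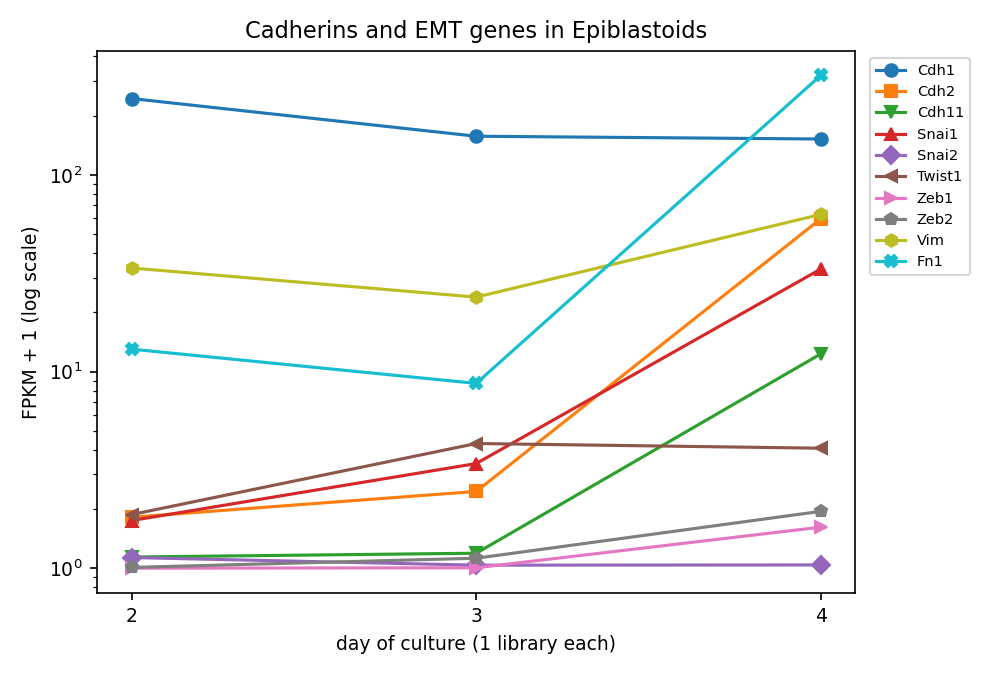
Level of the 10 genes as FPKM + 1 (vertical axis, log scale) on days 2, 3 and 4 of Epiblastoid culture (horizontal axis), 1 library a day. Fn1, Cdh2, Snai1 and Cdh11 climb from day 3 to day 4, Cdh1 stays between 151 and 243 FPKM, and Snai2, Zeb1 and Zeb2 stay below 1 FPKM.

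Genes of gastrulation were high in the same library. Of 14 genes of the primitive streak and mesoderm, 11 could be compared and all 11 were past 2-fold higher on day 4 (median log2 ratio 3.93, all genes -0.14), led by Lhx1 (0.0143 to 121 FPKM) and Mixl1 (1.65 to 254 FPKM), with T (15.5 to 38.0 FPKM) and Eomes (34.4 to 145 FPKM) the least raised. Of 11 endoderm genes, 7 could be compared and all 7 were higher (median 5.18), among them Cer1 (listed at 0 on the earlier day, then 295 FPKM) and Cxcr4 (0.624 to 231 FPKM). Of 16 ligands, receptors and targets of TGF-beta, Wnt and FGF signalling, 7 of 12 compared were higher and none lower, with Lefty2, an inhibitor of Nodal, going from 7.23 to 147 FPKM and Bmp4 from 0.312 to 10.1 FPKM, and with Nodal at 53.9 and 31.5 FPKM. Of 22 fibroblast genes, 9 could be compared, and 3 were higher and none lower (median 0.80). They summed to 12.3 FPKM on day 3 and 46.8 FPKM on day 4, of which Pdgfra, also a gene of early mesoderm, made up 20.1 FPKM, and Col1a1 was at 0.866 FPKM. A gene was compared if it reached 1 FPKM on either day. Most of the compared streak and endoderm genes were below 1 FPKM on day 3, as were Bmp4 and the 3 raised fibroblast genes. These entered through day 4 alone, which fixed the direction of their change in advance. EpiSCs, which had the fibroblast genes given above, also had streak genes, which summed to 70.5 and 111 FPKM against 22.7 to 33.6 FPKM in mESCs and 4.60 to 5.35 FPKM in EpiLCs, with T at 30.1 and 42.5 FPKM. The part of either in the EMT values of EpiSCs was not tested.

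Other genes around EMT were taken from lists, to be read against the 13.7% of all genes that were higher and the 19.1% that were lower in fPSCs than in EpiSCs. Some of these genes entered the test through EpiSCs alone, which fixed a lower level in fPSCs in advance. Cdh13, Hand1 and Cdx2, named below, were among them, while Lhx1 entered through fPSCs and epiblast-derived fPSCs. Of 15 further EMT regulators, 13 were tested between fPSCs and EpiSCs, and 2 were higher and 5 lower (median log2 -0.40, all genes 0.02). The organizer gene Gsc (log2 2.42 ± 0.84, adjusted p = 0.0367) and Snai3 (log2 1.00 ± 0.25, adjusted p = 0.00641) were the ones that rose, and Ets1 (log2 -3.53 ± 0.22) and Runx1 (log2 -2.99 ± 0.29) fell most. On day 4 of the Epiblastoids, 6 of 11 of these regulators were past 2-fold higher and 3 lower. Day 4 counts of this and the other lists are to be read against 7.85% of all genes higher and 8.22% lower. Most of the raised regulators, Gsc among them, were under 1 FPKM on day 3, so the filter fixed their direction. Gsc went from 0.288 to 96.1 FPKM and Id1, a target of BMP signalling, from 2.30 to 49.2 FPKM, while Tcf4 went from 4.57 to 0.768 FPKM and Snai3 from 6.27 to 1.76 FPKM.

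All 19 genes of the mesenchymal matrix and cytoskeleton were lower in fPSCs than in EpiSCs (median log2 -3.36), with the smooth muscle genes Tagln (log2 -7.76 ± 0.27) and Acta2 (log2 -7.16 ± 0.14) lowest, and so were 15 of 17 fibroblast genes tested (median log2 -3.22), led by Col1a1 (log2 -6.81 ± 0.15). S100a4 and Tnc of the matrix list entered the test through EpiSCs alone, so their lower level in fPSCs was fixed by the filter. The same holds for the fibroblast genes Col1a1, Col3a1, Col6a1, Col6a2, Col6a3, Lox and Bgn. In Epiblastoids of day 4, 5 of 15 such matrix and cytoskeleton genes were past 2-fold higher, among them the basement membrane collagen Col4a2 (2.66 to 23.1 FPKM) and the membrane protease Mmp14 (4.69 to 30.3 FPKM). Tagln was at 2.53 and 1.35 FPKM there, against 276 and 322 FPKM in EpiSCs.

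Of 19 epithelial genes tested, 11 were higher in fPSCs than in EpiSCs and 4 lower (median log2 1.39). The trafficking genes Ap1m2 (log2 4.12 ± 0.39) and Rab25 (log2 3.88 ± 0.31) rose most, and the simple-epithelium keratins Krt19 (log2 -3.05 ± 0.52) and Krt8 (log2 -2.73 ± 0.49) fell most. The epithelial list was mixed in Epiblastoids of day 4, with 4 of 19 higher and 3 lower: Krt8 went from 15.1 to 140 FPKM and the desmosome gene Dsp from 1.07 to 11.7 FPKM, and the claudin gene Cldn4 from 19.5 to 2.81 FPKM. Of 12 other cadherins and adherens junction genes tested, 7 were lower in fPSCs than in EpiSCs and none higher (median log2 -0.87), with Cdh13, a cadherin without a cytoplasmic tail, and the plakoglobin gene Jup falling by 2.1 ± 0.11 and 1.71 ± 0.22 on the log2 scale. Cdh4, another cadherin, was the only one of 9 past 2-fold on day 4 of the Epiblastoids, from 0.555 to 3.87 FPKM. This count is near the 7.85% of all genes that were higher, and Cdh4 entered through day 4 alone.

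Of the signalling genes, 3 of 15 tested were higher in fPSCs than in EpiSCs and 7 lower (median log2 -0.91, all genes 0.02). Fgf8 (log2 1.96 ± 0.32) and Wnt3 (log2 1.66 ± 0.31), both of the primitive streak, rose most, and Tgfb2 (log2 -3.08 ± 0.40) and its receptor gene Tgfbr2 (log2 -2.88 ± 0.25) fell most. Of 10 streak and mesoderm genes tested, 5 rose and 2 fell (median log2 0.80), with Lhx1 (log2 2.60 ± 0.95, adjusted p = 0.0463) and Eomes (log2 2.46 ± 0.30) highest and Hand1 (log2 -5.35 ± 0.16) and Cdx2 (log2 -1.36 ± 0.11) lowest. None of 8 endoderm genes passed (median log2 1.23).

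The genes whose levels were most like those of 4 of the genes were ranked by Pearson's r of log2(FPKM + 1) over the 19 libraries, among 7833 genes that reached 10 FPKM in some library. Closest to Cdh1 were Supt16 (r = 0.942), Kdf1 (0.902) and Kbtbd8 (0.884), each lowest in an EpiSC library. Closest to Cdh2 were Pth1r (0.916), the keratin gene Krt8 (0.911) and Lhfp (0.910). Closest to Snai1 were Igfbp4 (0.893), the apelin receptor gene Aplnr (0.886) and the mesoderm factor Hand1 (0.884), and closest to Vim were Cdc42ep1 (0.967), Mmd (0.961) and Tgfbi (0.955), each highest in EpiSC replicate 2. The libraries of a group share their culture, so these values rest largely on the EpiSC libraries and day 4 Epiblastoids.

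The state of the start sites was read in fPSCs at P10, where 1 track each of H3K4me3 (a mark of active or poised promoters), H3K27me3 (the mark of Polycomb repression) and DNA methylation was analysed, with no replicate or input track. Values of the marks are mean RPKM (reads scaled to bin length and mapped reads) within 5 kb of the start site, ranked among 22072 protein-coding genes. Cdh1 (start site chr8:109127251-109127251) had 4.63 RPKM of H3K4me3, more than 98.8% of promoters, and 0.322 RPKM of H3K27me3, more than 44.0%. Its H3K4me3 peaked at 39.8 RPKM, 1.15 kb into the gene.

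The cadherin genes that were low in fPSCs had both marks. Cdh2 had 2.14 RPKM of H3K4me3 (above 78.6% of promoters) and 1.79 RPKM of H3K27me3 (above 92.4%), and Cdh11 had 2.67 RPKM (87.8%) and 2.27 RPKM (95.3%). Among the factors, H3K27me3 was above 98.3% of promoters at Twist1 (3.34 RPKM), 93.6% at Zeb1 (1.96 RPKM), 91.7% at Snai2 (1.69 RPKM), 89.9% at Zeb2 (1.49 RPKM) and 87.3% at Snai1 (1.29 RPKM). Vim and Fn1 had 0.656 and 0.662 RPKM, above 70.2% and 70.5% of promoters.

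In the top 10% of promoters were 5 of the 10 genes for H3K27me3 (Cdh2, Cdh11, Snai2, Twist1 and Zeb1) and 2 for H3K4me3 (Cdh1 and Zeb2), a share of promoters that is 10% by construction. The same 5 genes had H3K4me3 at or above the median as well, a class that held 7.31% of promoters. H3K4me3 was only just above the median of 1.13 RPKM at Zeb1 (1.17 RPKM) and Snai2 (1.27 RPKM), and was 2.85 RPKM at Twist1. Within 1 kb, Zeb1 was below the median (2.43 against 2.55 RPKM), and the other genes of this class were above it. Within 1 kb of the start site only Snai2 stayed in the top 10% for H3K27me3, and Cdh2 had 0.546 RPKM there, above 66.8% of promoters. At Zeb2 the outermost annotated start was used, and its H3K4me3 was highest 4.15 kb downstream, where other annotated transcripts begin. The tracks are coarse in steps: a listed bin of 100 bp held at least 1.24 RPKM of H3K4me3 or 0.640 RPKM of H3K27me3, and at the median promoter 35.0 of 100 bins held any read.

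**Figure D5:**
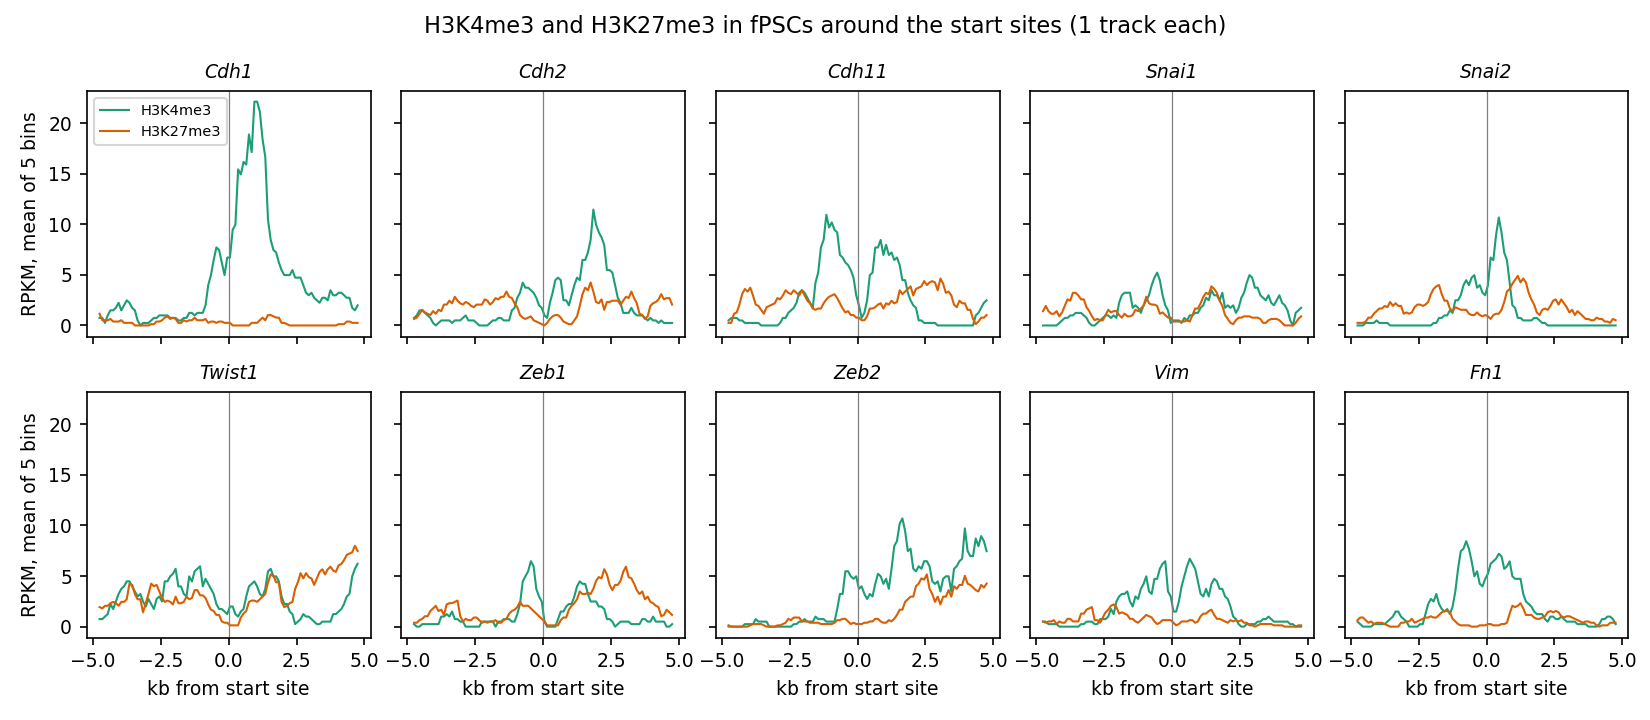
H3K4me3 (green) and H3K27me3 (orange) of fPSCs at P10 around the start sites of the 10 genes, as RPKM averaged over 5 bins of 100 bp (vertical axis) against the distance from the start in kb, in the direction of transcription (horizontal axis), 1 track each. Cdh1 has the tallest H3K4me3, and its H3K27me3 is near that of the median promoter (0.322 against 0.379 RPKM within 5 kb). At Cdh2, Cdh11, Twist1 and Zeb1 H3K27me3 spreads beside H3K4me3.

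DNA methylation near the start was low at most of the genes, whatever their level. The mean methylated fraction within 1 kb was 0.2 or less at 8 of 10 genes, against 31.8% of 21805 promoters with a value and a median of 0.361 over all. It was 0 at Twist1, 0.0150 at Vim, 0.0193 at Fn1, 0.0288 at Cdh11, 0.0431 at Cdh2, 0.0767 at Zeb1, 0.0950 at Zeb2 and 0.136 at Snai2. The exceptions were Cdh1 (0.211), the most highly expressed of the genes in fPSCs, and Snai1 (0.262), and within 500 bp these had 0.0956 and 0.0730. The values come without coverage, so no interval can be given.

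Single fPSCs of 4 clones at P11 were read as raw counts per gene and cell, in 182 cells, of which 181 had at least 500 genes. No cell name was shared between clones, but 1 column name occurred 2 times in clone 3 with different counts (4927 and 5185), and both were kept. Cdh1 had a count in 91.7% of cells (166 of 181, exact 95% binomial interval 86.7% to 95.3%) and in 86.4% to 100% of the cells of each clone. Summed over cells it made up 599, 538, 621 and 521 CPM (counts scaled to the clone's total) in clones 1 to 4.

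The shares of the other genes were set beside those of fibroblast collagens, which these cells should lack. Col1a1, at 0.465 FPKM or less in all long-term fPSC libraries, still had a count in 29.3% of single cells (22.8% to 36.5%), and Col3a1, at 0.0805 FPKM or less, in 10.5% (6.44% to 15.9%). Against these, Vim had a count in 35.4% of cells (28.4% to 42.8%), Fn1 in 31.5% (24.8% to 38.8%), Cdh2 in 21.5% (15.8% to 28.3%) and Zeb2 in 13.3% (8.68% to 19.1%). Zeb1 (3.31%), Cdh11 and Twist1 (2.76% each), Snai2 (1.10%) and Snai1 (0.552%, 1 cell) were below both collagens. Shares of Col1a1 ran from 15.6% to 36.4% between clones, and Cdh1 was the only gene of the 10 above it in every clone. Vim, Fn1 and Cdh2 were above Col3a1 in every clone, and no test was made. A low share does not show a low level in these cells, since Pou5f1, at 462 FPKM or more in the long-term fPSC libraries, had a count in only 9.39% of single cells (5.57% to 14.6%). The shares of the genes other than Cdh1 are therefore read neither as expression nor as its absence. Of the 7 genes listed for all 4 clones, 5 had a count in at least 10% of cells, against 63.8% of the 14176 genes listed in both tables, and Cdh11, Snai1 and Snai2 were listed for 2 clones each.

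Cdh2 made up 33.3, 5.24, 21.9 and 37.6 CPM in clones 1 to 4, and no test was made between clones, each of which is 1 sample. The median cell of a clone had between 19078 and 33883 counts. Intervals over all cells pool the 4 clones, and all intervals cover counting error only, not the spread between clones.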

How the data were processed

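Bulk RNA-seq of 19 libraries was deposited by the authors as FPKM: per the study's methods and the submitters' processing notes, reads were trimmed with cutadapt 1.11, aligned with TopHat2 2.1.1 to mouse cDNA of mm9 and quantified with Cufflinks 2.1.1. FPKM carries no depth, so no count test was run. Of 23608 entries, 4 with a repeated name were left out. Groups were compared on log2(FPKM + 1) with limma 3.58.1 (trend) in R 4.3.3, in 1 fit over mESCs, EpiLCs, EpiSCs, fPSCs and epiblast-derived fPSCs, on genes that reached 1 FPKM in 2 or more of 15 libraries. The threshold was a Benjamini-Hochberg adjusted p under 0.05 over all genes and a fold of at least 1.5. The fPSC deposits were compared in a fit of their own. On simulated data with 200 changed genes, 70.0% were recovered for EpiSCs against mESCs and 84.5% for fPSCs against EpiSCs.

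For H3K4me3 and H3K27me3 the authors gave RPKM per 100-bp bin, from reads put through Trim Galore and Bowtie2 2.2.2 (mm9), and bins without reads count as 0. Methylation was deposited by the authors as a fraction per window of 100 bp, made with BS-Seeker2. Whether replicates were pooled in these tracks is not stated. Start sites are the outermost annotated ends of protein-coding genes of GENCODE vM1 on NCBIM37 (mm9). Single-cell counts were deposited by the authors as raw counts, from Smart-seq2. Motifs were searched on both strands in the 250 bases before each start.

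The 10 genes and the lists were chosen with earlier results of these data known. Genes named were drawn from the 10 genes, for Cdh1, Cdh2, Snai1 and Vim the 3 most alike, the check genes, and from each list the 2 largest rises and 2 largest falls past the threshold between fPSCs and EpiSCs and the 2 largest and 2 smallest Epiblastoid ratios of day 4 to day 3. Col1a1, Col3a1 and Pou5f1 in single cells, Nodal, and genes named only to describe a library were chosen after their values were seen. Alternatives were a pseudocount of 0.1, no filter, upper-quartile scaling, only the groups compared, 1 deposit, a replicate block, leaving out libraries, other windows and thresholds for promoters, and other filters on cells.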

Additional observations from a re-analysis of the deposited data

Results flagged for a closer look

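In 3 cases 1 of the 7 long-term fPSC libraries lay far from the other 6 on the log2(FPKM + 1) scale, by Dixon's test at the 95% level, which flags about 1 in 20 groups by chance. Cdh2 was at 31.2 FPKM in 46C P24, where the next library, CMT P11, had 7.19 FPKM. Cdh11 was at 2.12 FPKM in the same library, with the others at 0.624 FPKM or less. Twist1 was at 3.58 FPKM in BVSC P14, with the others at 0.887 FPKM or less.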

How the results depend on the processing

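Of 118 recomputed counts of genes, 104 stayed within 1.5 times the reported count and none of the single genes reversed its direction. EpiLCs against mESCs gave 4 genes in place of 2 with only these groups in the fit (1 higher and 3 lower) and 5 with the replicate block (2 higher, Cdh2 and Twist1, and 3 lower). fPSCs against EpiLCs gave 3 in place of 1 with fPSCs of the earlier deposit, and epiblast-derived against other fPSCs gave 1 (Fn1) in place of 0 with fPSCs of the later deposit. The deposits of fPSCs differed in 1 gene (Vim) in place of 0 with upper-quartile scaling. With a pseudocount of 0.1, Epiblastoids of day 3 against day 2 gave 2 in place of 1, with Snai1 added (log2 ratio 1.56). Leaving out 1 library at a time gave 0 to 2 genes for fPSCs against EpiLCs, 2 to 4 for fPSCs against mESCs, 6 to 9 for fPSCs against EpiSCs, 5 to 7 for EpiSCs against mESCs, 7 to 8 for EpiSCs against EpiLCs, 2 for EpiLCs against mESCs, 0 to 1 for epiblast-derived against other fPSCs and 0 to 1 between deposits. Leaving out single fPSC libraries was chosen after seeing the data. Within 1 kb of the start site the count in the top 10% fell to 1 for H3K4me3 and 1 for H3K27me3, and in the top 5% it was 2 for H3K27me3. Within 2.5 kb, 4 genes had a methylated fraction of 0.2 or less. The causes of these changes were not tested.

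With 2 libraries a group, it cannot be told whether the replicate numbers pair the samples. Deviations of same-numbered libraries correlated at 0.204 between EpiLCs and mESCs, -0.199 between EpiSCs and mESCs and -0.134 between EpiSCs and EpiLCs. The replicate block gave 8 genes for EpiSCs against mESCs and 9 for EpiSCs against EpiLCs, and crossed numbers of the EpiSC libraries, an alternative chosen after seeing the data, gave 9 and 9. With 2 libraries in most groups and none with known depth, small differences in genes below 1 FPKM cannot be resolved, and no Epiblastoid day has a replicate.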
